A study of Mus musculus with 9 samples.

Results

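The 10 genes described here encode the cyclins and cyclin-dependent kinases that drive the cell cycle: Ccnd1, Ccnd2, Ccnd3, Ccne1, Ccne2, Ccna2, Ccnb1, Cdk1, Cdk2 and Cdk4. They were taken by symbol from the 26611 named genes of the deposited histone count tables, and each symbol was found once in every table. Chromatin immunoprecipitation with sequencing had been applied to mouse leukemias of 3 genotypes, all carrying MLL-ENL, the product of a translocation that joins Kmt2a to Mllt1. The floxed genotype is labelled fl, the deleted genotype ΔERT2, and the rescue genotype ΔERT2 + Hhex-F, read here as the deleted background with Flag-tagged Hhex. No label gives the gene that was floxed, and Hhex, a homeobox transcription factor, is inferred from the title of the study. Nor do the labels say whether a leukemia is 1 clone, and no genotype without a floxed or deleted allele was used here. Each genotype has 1 library for H3K27me3, 1 for H3K4me3 and 1 for the Flag tag, so no difference between genotypes has a replicate check and none was tested.

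Cyclins are regulatory subunits without which their kinases are inactive. D-type cyclins answer to growth signals and bind Cdk4 or Cdk6, and the active kinase phosphorylates the retinoblastoma protein, which releases E2F factors. E-type cyclins with Cdk2 then start DNA replication, cyclin A2 with Cdk2 or Cdk1 carries it through, and cyclin B1 with Cdk1 drives mitosis. H3K27me3 is placed by Polycomb repressive complex 2 on silent genes, and H3K4me3 marks active promoters. D-type cyclin genes are expressed in a tissue-specific way, so a cell may use 1 of them and silence another, whereas cyclin A2, cyclin B1 and Cdk1 are needed by dividing cells in general.

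The H3K27me3 libraries held 2444487 to 4203349 counts in named genes and the H3K4me3 libraries 395133 to 645240. H3K27me3 had been counted over whole genes and is given as CPM, the count scaled to a common depth in named genes, or as CPM per kb where genes are compared. For H3K4me3 the counted unit was a 301 bp window at each gene. Genes that averaged 20 or more counts across the libraries of a mark are termed measured. A measured gene was called where CPM differed at least 1.5-fold between genotypes and 1 lay outside the 95% exact binomial interval around that fold. All intervals are 95% and cover counting error only. The myeloid identity of the cells was visible in H3K4me3: 6 of 6 plus-strand myeloid markers had at least 20 counts in all 3 libraries, against 0 of 2 T-cell, 0 of 4 erythroid and 0 of 3 stromal markers. Of 2 plus-strand B-cell markers, Ebf1 reached 20 counts in the floxed and deleted libraries.

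H3K27me3 counts at the 10 genes lay mainly on the D-type cyclins, and per kb the mark was densest on Ccnd1, not on Ccnd2. Ccnd1 encodes cyclin D1, the D-type cyclin best known from epithelial tissues, and is located on chromosome 7, 144929931 to 144939831 (GRCm38.p6). Its counted length of 9995 bp held 159 counts in the floxed, 130 in the deleted and 244 in the rescue library. These were 65.04 CPM (55.3 to 76.0), 51.3 CPM (42.8 to 60.9) and 58.0 CPM (51.0 to 65.8), and the intervals of the 3 libraries overlap. Per length, Ccnd1 had 6.51, 5.13 and 5.81 CPM per kb, and 6.12%, 7.56% and 6.58% of all named genes were denser in the respective library.

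Ccnd2 encodes cyclin D2, a D-type cyclin used by blood cells, on chromosome 6, 127125162 to 127152188. Its counted length of 25341 bp held 83 H3K27me3 counts in the floxed, 30 in the deleted and 74 in the rescue library. Scaled to depth these were 34.0 CPM (27.04 to 42.1), 11.8 CPM (7.98 to 16.9) and 17.6 CPM (13.8 to 22.1). The floxed library was the high one, and its interval did not overlap those of the other libraries, whose intervals overlap each other. The density was 1.34 CPM per kb in floxed, 0.467 in deleted and 0.695 in rescue, against a median of 0.204, 0.231 and 0.231 over all named genes. By density, Ccnd2 was therefore the second of the 10 genes in each library, below Ccnd1, and 25.7% of named genes were denser than it in the floxed library.

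Ccnd3 encodes cyclin D3, another D-type cyclin of blood cells, on chromosome 17, 47505051 to 47599689. It had 89, 92 and 125 H3K27me3 counts over 94639 bp in floxed, deleted and rescue. That is 0.385, 0.383 and 0.314 CPM per kb, and the intervals of the 3 libraries overlap. Its density lay between the median of plus-strand genes with H3K4me3, 0.127 CPM per kb in the floxed library, and that of plus-strand genes almost without it, 0.417.

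None of the remaining cyclin and kinase genes reached the filter of 20 counts for H3K27me3. That filter is on counts, so it depends on the length of a gene as well as on the mark. Ccne1 (chromosome 7, 38097984 to 38107490) and Ccne2 (chromosome 4, 11190433 to 11204779) encode the E-type cyclins. Ccne1 had 2, 1 and 4 counts in floxed, deleted and rescue, and Ccne2 had 0 in every library. Taking 3 counts as the limit that a count of 0 allows, Ccne2 could have had up to 0.0914, 0.0881 and 0.0532 CPM per kb, below the median of all genes. The upper ends of its plotted 95% Poisson intervals are 0.112, 0.108 and 0.0654. The S-phase cyclin gene Ccna2 (chromosome 3, 36564865 to 36573038) had 3, 2 and 4 counts. The mitotic cyclin gene Ccnb1 (chromosome 13, 100778739 to 100786486) had 0, 2 and 5.

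Among the kinases, Cdk1 (chromosome 10, 69335146 to 69352912), which drives mitosis, had 4, 4 and 11 H3K27me3 counts. Cdk2 (chromosome 10, 128697938 to 128705051), the partner of E-type cyclins, had 4, 0 and 4. Cdk4 (chromosome 10, 127063535 to 127067288), the partner of the D-type cyclins, had 2, 2 and 5. On its length of 3681 bp these few counts are 0.222, 0.214 and 0.323 CPM per kb. The median of all named genes was 0.204, 0.231 and 0.231 in floxed, deleted and rescue. Pooled over these 7 genes, 15 floxed, 11 deleted and 33 rescue counts lay on 64.9 kb. This is 0.0946 (0.0529 to 0.156), 0.0669 (0.0334 to 0.120) and 0.121 (0.0833 to 0.170) CPM per kb, intervals that include the level of plus-strand genes with H3K4me3 in floxed and rescue and end just below it in deleted, where that level was 0.129. No ratio is given for these genes at this depth.

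**Figure D1:**
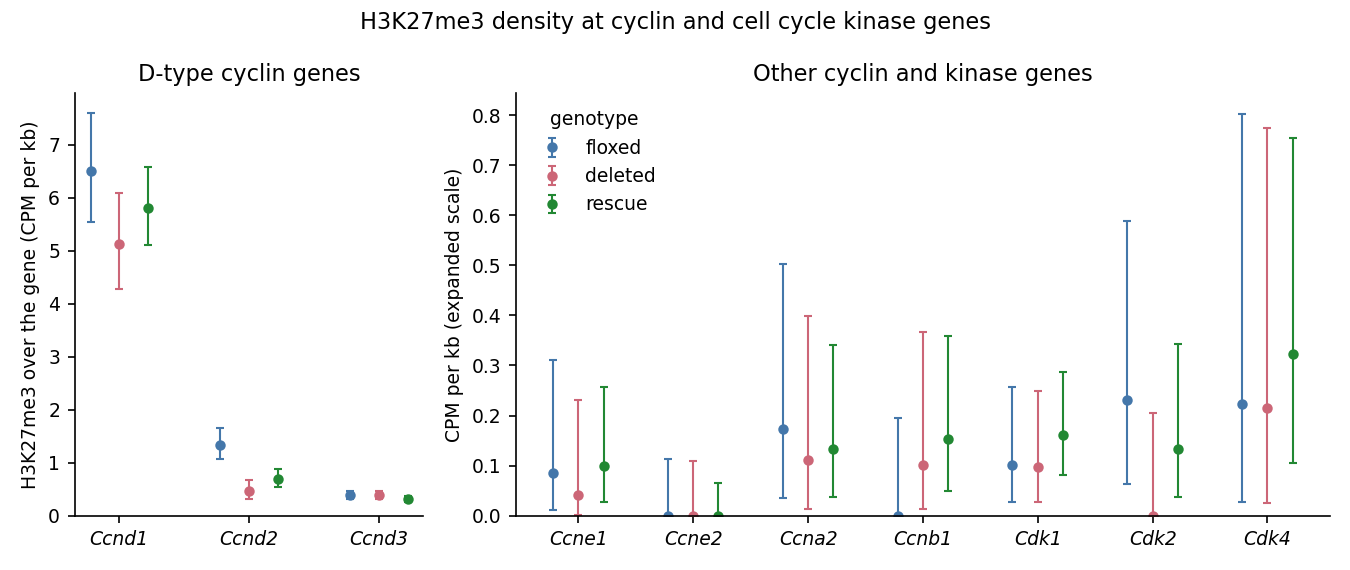
H3K27me3 density (CPM per kb of the counted gene) at the 10 genes, with 1 point per library and bars for the 95% Poisson interval; the right panel has an expanded scale. Ccnd1 lies at 5.13 to 6.51 in all 3 genotypes, Ccnd2 falls from 1.34 in floxed to 0.467 in deleted, and the genes on the right stay at or below 0.323.

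The deleted genotype was first compared with the floxed genotype. With 1 library each, loss of the floxed gene cannot be told apart from other differences between the libraries. Of the 3 measured genes, 1 was called, Ccnd2; over all 10604 measured genes 10.1% were called, 5.39% as lower and 4.72% as higher. The balance of these calls depended on the scaling: 53.4% of them were lower, and 43.5% when the libraries were scaled to a background class of genes. The deleted to floxed ratio of Ccnd2 was 0.348 (0.222 to 0.535), a log2 ratio of -1.50, where the median of all measured genes was 0.02. Ccnd1 had a ratio of 0.788 (0.620 to 1.0001) and Ccnd3 one of 0.997 (0.736 to 1.35), and neither was called. The interval of Ccnd2 lay below those of Ccnd1 and Ccnd3. A lower level in a library can mean fewer cells with the mark or less of it per cell, and these cannot be told apart.

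The rescue genotype, read as carrying Flag-tagged Hhex, was next compared with the deleted genotype, again with 1 library each. None of the 3 measured genes was called in rescue against deleted, where 18.4% of all measured genes were called, 11.3% as lower and 7.07% as higher. With edgeR TMM factors, which put 51.5% of all calls on the lower side in place of 61.5%, Ccnd2 was called higher. Ccnd2 had a ratio of 1.49 (0.961 to 2.36), just under the fold required. The TMM-scaled ratio was 1.57 (1.01 to 2.48). Ccnd1 had 1.13 (0.911 to 1.41) and Ccnd3 0.820 (0.621 to 1.08).

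Against the floxed genotype, the rescue library still held less H3K27me3 on Ccnd2, with a ratio of 0.518 (0.374 to 0.718). It was the 1 gene of the 3 called in this comparison, against 13.8% of all measured genes (8.05% lower and 5.72% higher), and a required fold of 2 would end that call. Ccnd1 stood at 0.892 (0.728 to 1.10) and Ccnd3 at 0.817 (0.617 to 1.08). Cdkn2a, which encodes an inhibitor of the D-type cyclin kinases and is named in the series title, stood at 1.07 (0.968 to 1.19) in the same pair of libraries. The 3 comparisons share libraries, so their ratios are not independent.

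**Figure D2:**
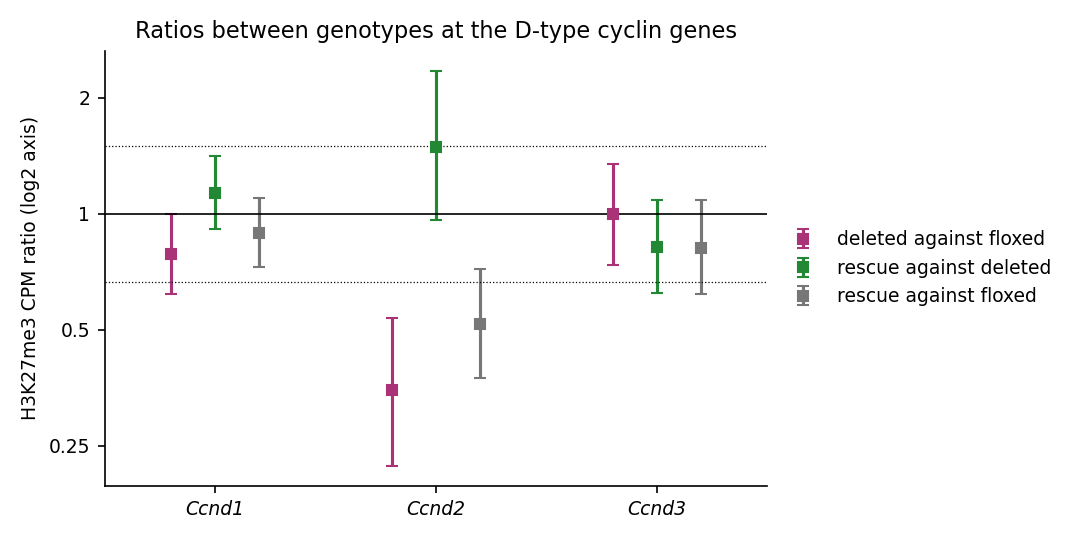
H3K27me3 CPM ratios between genotypes (log2 axis) for the 3 measured genes, with bars for the 95% exact binomial interval and dotted lines at a fold of 1.5 in each direction. Ccnd2 lies at 0.348 in deleted against floxed and 0.518 in rescue against floxed, while every interval of Ccnd3 includes 1.

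The genes around Ccnd2 were described to see whether they shared its course. Of 13 named genes within 500 kb, 7 were measured and none was called in any of the 3 comparisons. With 10.1%, 18.4% and 13.8% of all measured genes called, a count of 0 of 7 is near the background and does not set these genes apart. The non-coding gene 9330179D12Rik overlaps the upper end of Ccnd2 by 2.80 kb and runs away from it. It had 706, 591 and 1085 counts, or 4.58, 3.70 and 4.10 CPM per kb, with a deleted to floxed ratio of 0.807 (0.722 to 0.902). That interval lies above the interval of Ccnd2. How reads in the shared stretch had been assigned is not stated in the labels.

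On the other side of Ccnd2, Tigar, which encodes a regulator of glycolysis, lay 15.6 kb away and had 6, 4 and 10 counts. Further on, the growth factor genes Fgf23 and Fgf6 were denser than Ccnd2, with 4.33 and 5.08 CPM per kb in the floxed library. Fgf23 had 90, 101 and 144 counts and a deleted to floxed ratio of 1.08 (0.806 to 1.45), and Fgf6 had 114, 93 and 145 and a ratio of 0.786 (0.592 to 1.04). Akap3 and Dyrk4 had ratios of 1.0003 and 1.22, and the potassium channel genes Kcna6 and Kcna1 1.09 and 0.783. Ndufa9, Rad51ap1, D6Wsu163e, Parp11 and Cracr2a were not measured, with 1 to 21 counts in any library.

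Ccnd1 lay beside a block of dense H3K27me3, an observation made after the values were seen. Fgf15, 29 kb away, had 22.9, 16.7 and 20.7 CPM per kb, and Fgf4 and Fgf3 beyond it had 33.6 and 20.4 in the floxed library. Of the 9 measured genes within 500 kb of Ccnd1, Fgf4 was called lower in deleted against floxed, with 317, 201 and 486 counts and a CPM ratio of 0.611 (0.510 to 0.732). Ppfia1 was called lower in rescue against deleted, at 0.575 (0.397 to 0.831), and none of the 9 was called in rescue against floxed. A count of 1 of 9 is again near the background. Fgf15 and Fgf3 had deleted to floxed ratios of 0.727 (0.598 to 0.882) and 0.752 (0.616 to 0.915). Both intervals exclude 1, but the ratios fell short of the fold required and were not called. Neither was Ccnd1 itself, with an interval of 0.611 to 0.986 under TMM factors and 0.639 to 1.03 under the background class. Farther off, Cttn had 0.801 (0.747 to 0.858) and Ano1 1.09 (1.01 to 1.18). Oraov1, which overlaps the lower end of Ccnd1 by 0.818 kb, had 0, 4 and 3 counts.

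**Figure D3:**
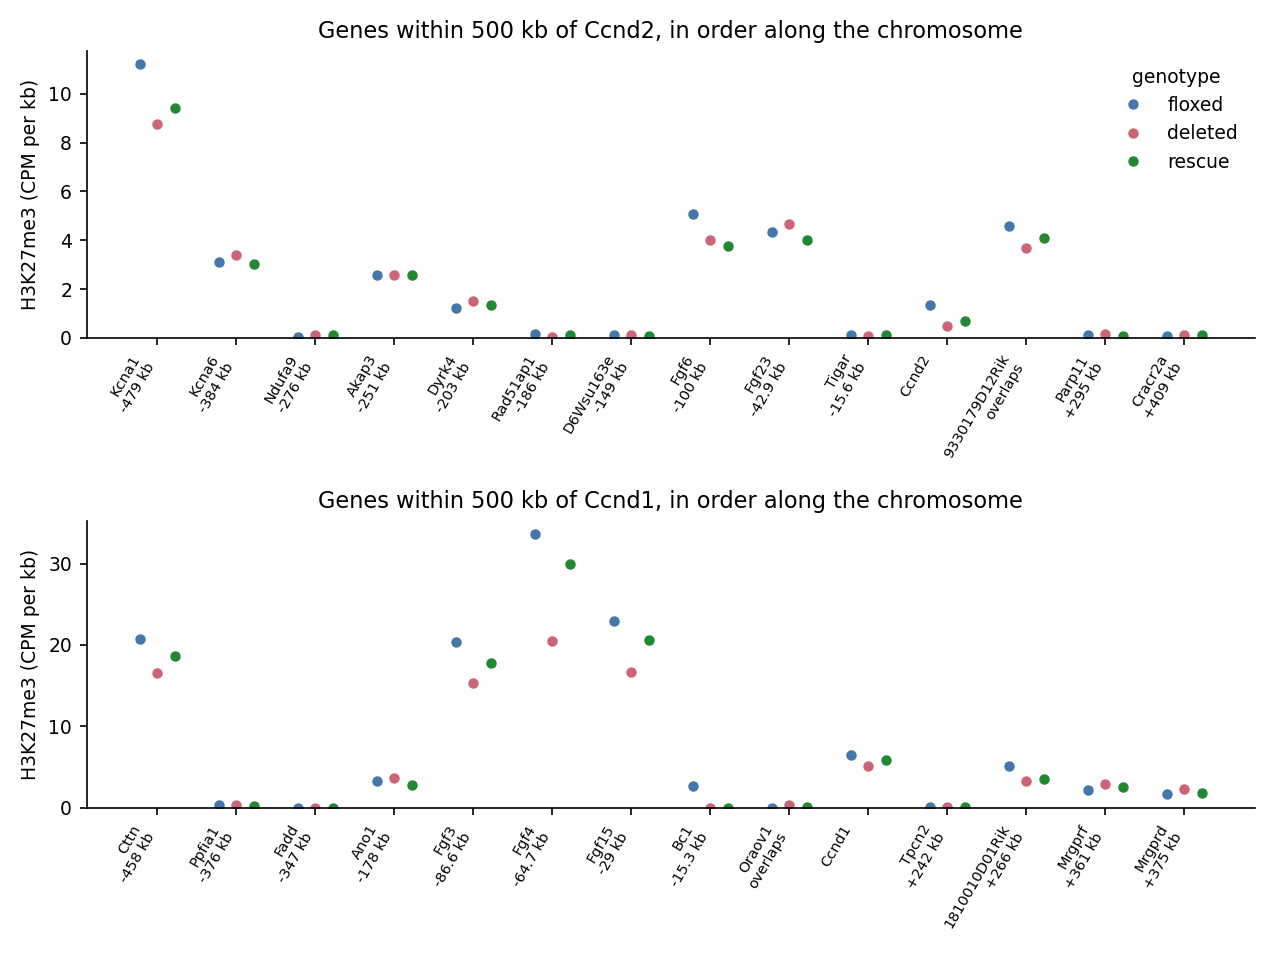
H3K27me3 density (CPM per kb) of the named genes within 500 kb of Ccnd2 (top) and Ccnd1 (bottom), in chromosomal order with the gap to the cyclin gene under each name and 1 point per library. Between floxed and deleted, Ccnd2 drops from 1.34 to 0.467 and 9330179D12Rik from 4.58 to 3.70, and Ccnd1 sits next to Fgf15 at 16.7 to 22.9.

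H3K4me3 could be read at 3 of the 10 genes, and at none of them did the genotypes differ by the size rule. What the window shows depended on the strand of the gene. Strand was known for 18458 named genes from a promoter table. In the floxed library 54.1% of 9235 plus-strand genes but 4.92% of 9223 minus-strand genes had at least 20 counts, and the shares were 50.5% against 3.51% in deleted and 48.3% against 3.23% in rescue. H3K27me3, counted over whole genes, did not split this way, with medians of 0.219 and 0.217 CPM per kb for plus and minus strand in the floxed library.

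The ends of minus-strand genes were then compared. Among 737 minus-strand genes whose own start lay within 300 bp of the start of a plus-strand gene with at least 20 floxed counts, 8.14% reached 20 counts. Among 103 minus-strand genes whose far end lay 300 to 2000 bp from such a start, 56.3% did. The deleted library gave 6.22% and 43.3%, and the rescue library 5.59% and 41.3%. The window of a minus-strand gene thus followed the chromatin at the lower coordinate, where transcription ends. Counts at minus-strand genes are given below as counts of that window and not as promoter levels.

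**Figure D4:**
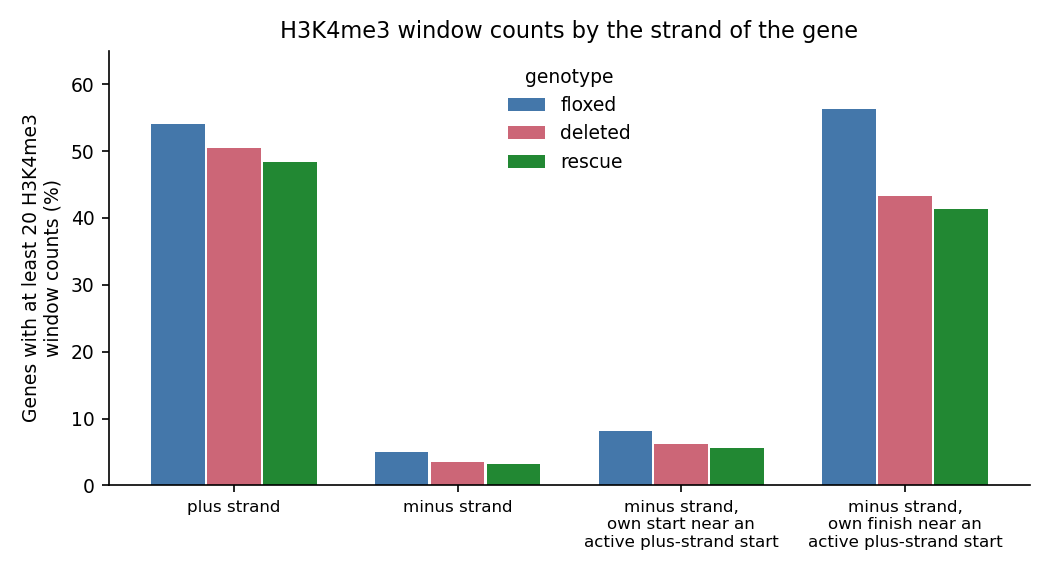
Percent of genes with at least 20 H3K4me3 window counts, by the strand of the gene and, for minus-strand genes, by which end lies near the start of a plus-strand gene with at least 20 counts; 1 bar per library. Plus-strand genes reach 48.3% to 54.1% and minus-strand genes 3.23% to 4.92%.

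Promoter sequences were matched by Entrez identifier in a RefSeq table of build GRCm38.p6, the assembly of mm10, for 6 of the 10 genes. Ccnd3 and Cdk4 are on the plus strand, and Ccne1, Ccnb1, Cdk1 and Cdk2 on the minus strand. Ccnd1, Ccnd2, Ccne2 and Ccna2 had no entry. As background, the mouse reference places Ccne2 on the plus strand and Ccnd1, Ccnd2 and Ccna2 on the minus strand.

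The 250 bases before the start are shown for 4 of these genes. Cdk4 and Ccnd3 are those at which the H3K4me3 window held counts, and for Ccnd3 the upstream of its 2 listed starts is shown. Cdk1 and Ccnb1 are mitotic genes on the minus strand, whose window held almost none. They are printed 5′ to 3′ on the strand of the gene, from Cdk4 at chr10:127063285-127063534 (plus), Ccnd3 at chr17:47504801-47505050 (plus), Cdk1 at chr10:69352913-69353162 (minus) and Ccnb1 at chr13:100786487-100786736 (minus). Capitals mark matches, on either strand, to the motifs CCAAT (the CCAAT box), TTTGAA (the cell cycle genes homology region), TTTNNCGC (E2F), GGGCGG (Sp1) and ATTAA (the core shared by many homeobox factors), with touching matches run together.
Cdk4: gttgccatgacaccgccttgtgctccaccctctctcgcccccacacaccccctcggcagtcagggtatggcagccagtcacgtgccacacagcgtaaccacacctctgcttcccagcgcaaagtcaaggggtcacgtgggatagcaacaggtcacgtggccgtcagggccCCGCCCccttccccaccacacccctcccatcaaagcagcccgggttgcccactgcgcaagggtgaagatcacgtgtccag
Ccnd3: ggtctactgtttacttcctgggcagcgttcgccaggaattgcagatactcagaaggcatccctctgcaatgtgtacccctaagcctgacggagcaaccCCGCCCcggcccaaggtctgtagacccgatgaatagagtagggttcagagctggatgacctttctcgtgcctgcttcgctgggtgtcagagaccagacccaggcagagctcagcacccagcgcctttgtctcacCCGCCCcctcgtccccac
Cdk1: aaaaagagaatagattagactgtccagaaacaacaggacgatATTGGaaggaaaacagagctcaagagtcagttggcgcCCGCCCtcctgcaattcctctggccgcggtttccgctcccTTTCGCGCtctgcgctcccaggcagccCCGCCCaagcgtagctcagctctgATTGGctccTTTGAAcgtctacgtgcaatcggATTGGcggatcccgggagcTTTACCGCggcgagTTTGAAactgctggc
Ccnb1: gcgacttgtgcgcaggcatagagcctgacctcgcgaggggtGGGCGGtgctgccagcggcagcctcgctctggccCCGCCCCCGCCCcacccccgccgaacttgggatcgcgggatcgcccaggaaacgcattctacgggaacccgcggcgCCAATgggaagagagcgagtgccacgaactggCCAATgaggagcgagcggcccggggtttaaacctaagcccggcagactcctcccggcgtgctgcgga

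The motif matches are a description of these letters. Cdk1 held 3 CCAAT, 2 TTTGAA, 2 TTTNNCGC and 2 GGGCGG matches in its 250 bases. Ccnb1 held 2 CCAAT and 3 GGGCGG matches, Ccnd3 held 2 GGGCGG at the start shown, and Cdk4 held 1. The Sp1 motif was found at all 6 matched genes, counting either Ccnd3 start, against 32.7% of the 32851 promoter entries of the table. CCAAT was found at 4 (33.8% of entries), but at Ccnd3 only at the start not shown. These shares are per entry, whereas a match at either start counted for Ccnd3. TTTNNCGC was found at 2, Cdk1 and Cdk2 (4.28%), TTTGAA at Cdk1 (16.0%) and ATTAA at Cdk2 (24.9%). The promoters of the 6 genes held 11 (upstream Ccnd3 start) to 34 (Ccne1) CG dinucleotides, against a median of 6. Of all entries, 64.4% held fewer than this Ccnd3 start, 68.5% fewer than Cdk4, 80.3% fewer than Cdk1, 92.4% fewer than Ccnb1 and 96.5% fewer than Ccne1.

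Ccne2, whose product with Cdk2 starts replication, had the highest H3K4me3 of the 3 genes at which it could be read. Its window held 139, 104 and 108 counts in floxed, deleted and rescue, or 215 CPM (181 to 254), 247 CPM (202 to 300) and 273 CPM (224 to 330). It stood above most genes: 6.17%, 3.89% and 2.70% of plus-strand genes had more counts in the respective library. The deleted to floxed ratio was 1.15 (0.881 to 1.49), rescue to deleted 1.11 (0.837 to 1.46) and rescue to floxed 1.27 (0.977 to 1.64).

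Ccnd3 is the D-type cyclin gene on the plus strand, and its window held H3K4me3 counts. It is not set against Ccnd1 and Ccnd2, whose windows do not show their promoters. A window of 301 bp cannot cover both of the 2 listed Ccnd3 starts. The Ccnd3 window held 93, 52 and 47 counts, or 144 CPM (116 to 177), 124 CPM (92.3 to 162) and 119 CPM (87.4 to 158). The intervals of the 3 libraries overlap. Its deleted to floxed ratio was 0.858 (0.599 to 1.22), and rescue to floxed 0.825 (0.568 to 1.18).

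Cdk4 had 78, 47 and 58 counts, or 121 CPM (95.6 to 151), 112 CPM (82.1 to 149) and 147 CPM (111 to 190), again with overlapping intervals. Its ratios were 0.924 (0.629 to 1.34) in deleted against floxed, 1.31 (0.879 to 1.97) in rescue against deleted and 1.21 (0.849 to 1.73) in rescue against floxed. Thus 0 of 3 measured genes were called in each comparison, where the background was 7.41% of 6681 measured genes (deleted against floxed), 10.5% (rescue against deleted) and 5.84% (rescue against floxed). In the same order, 4.39%, 5.97% and 3.92% were lower, and 3.02%, 4.49% and 1.92% higher. The share of lower among all calls depended on the scaling: in deleted against floxed it was 59.2%, 74.4% with TMM factors and 87.8% with a background class of genes, and in rescue against floxed 67.2%, 78.9% and 88.9%. None of the 3 genes was called under any of these scalings. The intervals leave room for differences of about the size of the rule at each gene, so no call does not show equal levels.

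In order of H3K4me3, Ccne2 stood above Ccnd3 and Cdk4 in every library, with intervals that did not overlap theirs. Ccnd3 and Cdk4 did not differ from each other beyond their intervals. The other windows held 0 to 7 counts. Ccnd1 had 0 in every library and Ccnd2 0, 0 and 1. Ccne1 had 0, 2 and 0, Ccna2 1, 2 and 3, Ccnb1 2, 1 and 1, Cdk1 1, 0 and 1, and Cdk2 7, 3 and 3. Ccnb1, Cdk1, Cdk2 and Ccne1 are minus-strand genes in the promoter table, so H3K4me3 at their promoters was not measured by this window. The mouse reference also places Ccnd1, Ccnd2 and Ccna2 on the minus strand, so their low counts are not read as promoters without H3K4me3.

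**Figure D5:**
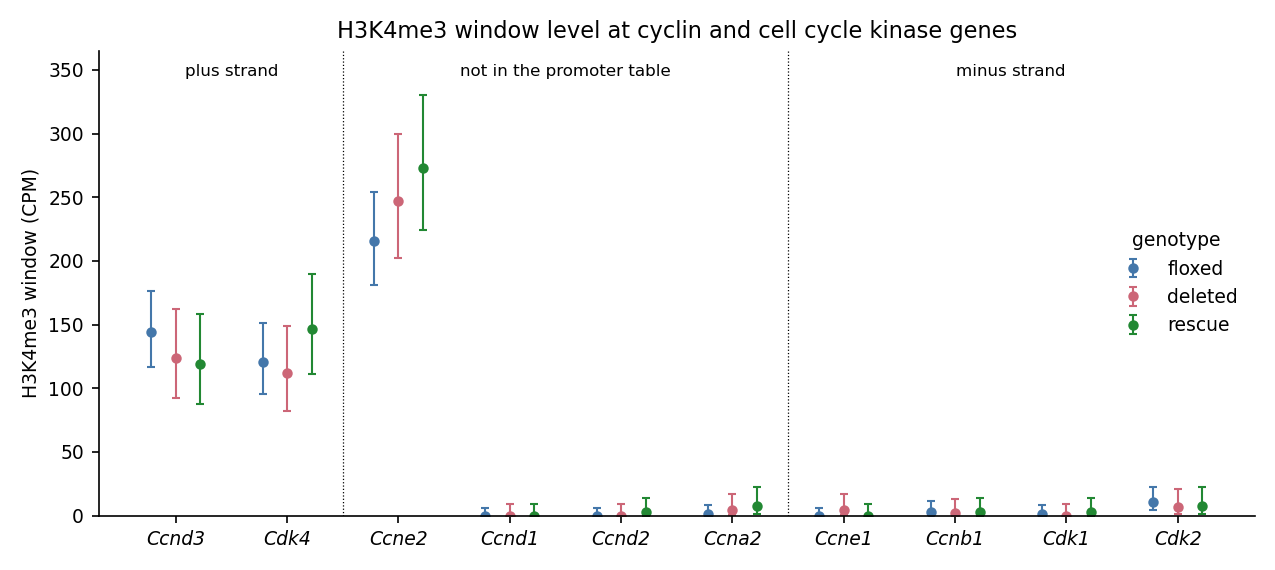
H3K4me3 window level (CPM) of the 10 genes by library, with bars for the 95% Poisson interval, grouped by the strand in the promoter table. Ccne2 lies at 215 to 273, Ccnd3 and Cdk4 at 112 to 147, and the 4 minus-strand genes at 10.8 or less.

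A neighbour gave an H3K4me3 window near the upper end of Ccnd2. The window of 9330179D12Rik, a plus-strand gene that starts inside Ccnd2 near its upper end, held 57, 33 and 36 counts in floxed, deleted and rescue. Oraov1, whose upper end overlaps the lower end of Ccnd1, had 104, 57 and 57 counts in its window. If that window also sits at the lower coordinate, it lies at the end of Oraov1 away from Ccnd1.

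No Flag summit lay within 500 kb of any of the 10 genes. The floxed, deleted and rescue lists held 475, 220 and 429 summits, and 0 of the 10 genes had a summit within 100 kb in any list. The share of all named genes this close to a summit was not computed, so the count does not set these genes apart. The summit closest to any of the 10 genes lay 621 kb from Cdk2, in the deleted list. For Ccna2 and Ccnd2 the nearest summit lay 955 kb and 4900 kb away in all 3 lists, those without tagged Hhex included.

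The other genes of the pathway were taken from lists written with earlier results of these data known. For the H3K27me3 calls of these lists the background is again 10.1% of all measured genes in deleted against floxed, 18.4% in rescue against deleted and 13.8% in rescue against floxed. Among 20 other cyclins, 5 were measured for H3K27me3 and none was called in deleted against floxed, with a median log2 ratio of -0.05. Ccnyl1, a relative of cyclin Y, had 55, 46 and 339 counts and was called higher in rescue against deleted, with a ratio of 4.45 (3.26 to 6.19). Of 16 other kinases 7 were measured, with a median of -0.14. Cdk6, the other partner of the D-type cyclins and a target of MLL fusions, was called lower with 42, 23 and 61 counts and a CPM ratio of 0.528 (0.303 to 0.898). Spread over 177914 bp this is 0.0966 CPM per kb in floxed, below the median of all genes. Cdk17 was called higher with 8, 27 and 31 counts and a CPM ratio of 3.25 (1.44 to 8.29). Over 80467 bp its counts are 0.0407, 0.132 and 0.0917 CPM per kb, below the median of all genes in each library. Cdk19, a Mediator kinase, had 52, 44 and 55 counts and was called lower in rescue against floxed. Its density of 0.158, 0.129 and 0.0973 CPM per kb was also below the median of all genes.

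Of 7 inhibitors of these kinases 4 were measured, and 3 of them, Cdkn2b, Cdkn2a and Cdkn1c, were called lower in deleted against floxed, with a list median of -1.27, where 5.39% of all measured genes were lower and their median was 0.02. Cdkn2a had 575, 164 and 1060 counts. The list holds the gene in the title of the study and was known to differ. In rescue against deleted these 3 were called higher and Cdkn2c lower. Of 19 pocket protein and E2F genes 7 were measured and none was called lower or higher after deletion (median 0.10). In rescue against deleted, Tfdp2, which encodes a partner of E2F proteins, had 72, 93 and 54 counts and was called lower at 0.350 (0.246 to 0.495). E2f5, a repressive E2F, was also lower with 18, 28 and 20 counts, and E2f7 was higher with 21, 11 and 44. In rescue against floxed, Ccnyl1 (3.58) and Cdk17 (2.25) were called higher, and Tfdp2 (0.436) and Cdkn2c (0.355) lower.

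Of 17 regulators of the kinases 5 were measured, with a median of -0.23. Fbxw7, whose product marks cyclin E for destruction, was called lower with 44, 27 and 73 counts and a CPM ratio of 0.592 (0.352 to 0.977), and higher in rescue against deleted. Spread over 163622 bp its counts are 0.110, 0.0651 and 0.106 CPM per kb, below the median of all genes in each library. Both Fbxw7 calls were lost when libraries were scaled to a background class of genes. Of 22 replication and mitosis genes, such as Mcm2 and Plk1, none was measured for H3K27me3. Dense H3K27me3 in the pathway, named after the values were seen, lay on Cdk5r2, a neuronal activator of Cdk5, with 41.2 CPM per kb in floxed. The inhibitor genes Cdkn1c, Cdkn2a, Cdkn2c and Cdkn2b followed with 19.3, 11.7, 8.64 and 5.35, and Ccna1, the germline cyclin A, had 5.63. The Ccna2 gene used by dividing cells had 0.172, from 3 counts.

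For H3K4me3, 9 of the 20 other cyclins and 9 of the 16 other kinases were measured, and none of them was called in any comparison. None of these 18 was known to be on the minus strand. The pocket protein and E2F, replication and mitosis, and regulator lists held 1 call of 10 or 11 measured genes each in deleted against floxed, near the background of 7.41%, and the called genes are given as values. Among pocket proteins and E2F genes 1 of 11 was called. This was Rbl2, which encodes the pocket protein p130 and had 120, 49 and 65 counts and a CPM ratio of 0.626 (0.440 to 0.880). Cdt1, a replication licensing factor, was the 1 of 11 replication and mitosis genes called, with 58, 67 and 42 counts and a CPM ratio of 1.77 (1.23 to 2.56). Of 10 regulators, Pkmyt1, an inhibitory kinase of Cdk1, was called higher with 47, 49 and 29 counts and a CPM ratio of 1.60 (1.05 to 2.44), a call lost with the background class. Cdc25b, a phosphatase that activates Cdk1, had 61, 39 and 61 counts and was called higher in rescue against both other genotypes, and Cdc25a, with 69, 42 and 26, lower in rescue against floxed. Of the inhibitors 5 were measured, among them Cdkn1a, on the plus strand, which was called higher with 58, 73 and 52 counts and a CPM ratio of 1.93 (1.35 to 2.77). Cdkn2a, Cdkn2c and Cdkn2d are minus-strand genes, so their window counts are not read as promoter levels.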

How the data were processed

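Per the labels and the file headers, each of 6 histone libraries has a table of raw counts per gene that the authors deposited without normalisation. Tools and build, per the submitters' processing notes, were featureCounts, MACS2 and mm10, with no aligner stated. The 3 Flag files hold summits with a −log10 score as deposited, which was not used further. Rows without a symbol (568, 0.608% to 0.739% of counts) were left out. CPM used the sum over named genes as depth; intervals were computed with scipy 1.17.1, and log2 ratios with a prior count of 1. edgeR's quasi-likelihood test needs replicates, so no p-value is given. Alternative scalings were edgeR 4.0.16 TMM factors, DESeq2 1.42.0 size factors, and pooled counts of a background class, which was the genes highest in mean H3K4me3 for H3K27me3 and those lowest in it for H3K4me3. The calling step was run on simulated Poisson counts without variation between libraries, which checks the calculation and not the error between libraries. Gene positions and strands came from RefSeq tables of GRCm38.p6. The named genes are the 10 genes, those within 500 kb of Ccnd2, and listed genes that met the size rule (at most 4 per comparison and direction); the neighbours of Ccnd1 and a few dense genes were added after their values were seen. A rule for genes most like Ccnd2 asked for 20 H3K4me3 counts, which Ccnd2 does not reach, so it was not applied. Genes and lists were chosen with earlier results of these data known.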

Additional observations from a re-analysis of the deposited data

How the results depend on the processing

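Alternative settings were run for each of 6 comparisons. The number of the 10 genes called changed in 2: for H3K27me3 in rescue against deleted it was 1 (Ccnd2) in place of 0 with edgeR TMM factors, and in rescue against floxed 0 in place of 1 with a 2-fold rule. Filters, fold and interval leave a ratio as it is by construction; under the 3 other scalings, all 54 ratios of the measured genes stayed within their 95% interval, and Ccnd2 in deleted against floxed ranged from 0.343 to 0.359. Flag summits within 10 kb or 500 kb were 0, as within 100 kb. Counts over all genes moved more. H3K27me3 calls, lower then higher, were 572 and 500 in deleted against floxed (467 and 607 with the background class), 1196 and 750 in rescue against deleted, and 854 and 607 in rescue against floxed. In the same order a 2-fold rule gave 145 and 177, 484 and 323, and 319 and 289; no filter gave 840, 1149 and 1000 higher; a mean of 50 counts gave 276 higher, 734 lower, and 528 lower with 399 higher; a 99% interval gave 287 higher in deleted against floxed. H3K4me3 calls were 293 and 202, 399 and 300, and 262 and 128. The 2-fold rule gave 70 and 42, 194 and 80, and 98 and 20; the 99% interval 122 and 105, 242 and 139, and 122 and 63; a mean of 50 counts 128 and 68, 192 and 179, and 116 and 64. No filter gave 507 higher, 629 lower and 335 higher. The background class gave 653 and 91 in deleted against floxed and 495 and 62 in rescue against floxed, and moved the median log2 ratio from -0.03 to -0.20 and from -0.01 to -0.13. The cause of the shift in scaling was not tested. No paired analysis was possible because each group has 1 library, and no library could be left out. Depth limits the H3K4me3 ratios and all H3K27me3 values at the genes with 0 to 11 counts.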
